A study of Mus musculus with 6 samples.

Results

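The insulin-like growth factor (IGF) system was described in MSR1 KO macrophages, from bulk RNA-seq counts of 3 MSR1 KO and 3 MSR1 WT libraries. Its members were taken by gene symbol and comprised 10 of the 52550 genes in the deposited table. They were the ligands Igf1 and Igf2, the receptors Igf1r and Igf2r, and the binding proteins Igfbp2, Igfbp3, Igfbp4, Igfbp5, Igfbp6 and Igfbp7. Bone marrow of C57BL/6 mice, either MSR1 KO or MSR1 WT, was grown for 7 days in RPMI-1640 with 25 ng/ml M-CSF, the cytokine that drives marrow precursors to macrophages. The macrophages of both genotypes were then kept for 48 h in a transwell, a chamber divided by a porous membrane, with bone marrow stromal cells (BMSCs), so that no library came from macrophages cultured alone. The MSR1 KO mice carry the deletion in every tissue, and the labels do not give the genotype of the BMSCs.

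IGF1 and IGF2 are small secreted growth factors that signal through the IGF1 receptor, a tyrosine kinase that acts on the PI3K-AKT pathway through insulin receptor substrates. The IGF2 receptor takes up and degrades IGF2 and also carries lysosomal enzymes bearing mannose 6-phosphate, and the binding proteins hold the ligands outside the cell and limit or prolong their action. In bone, macrophages are a known source of IGF1, whereas IGF2 and many binding proteins are made by stromal cells and osteoblasts.

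Of the 9 members with enough counts to be tested, Igf2r, Igfbp5 and Igfbp7 were lower in MSR1 KO libraries at an adjusted p under 0.05 in edgeR's quasi-likelihood test with Benjamini-Hochberg adjustment over 16402 genes, and 0 were higher. That rule called 2.66% of all tested genes lower and 2.25% higher, 4.91% in all. At an unadjusted p under 0.05 the same edgeR test gave 7 lower members and 1 higher member, and DESeq2 gave 6 lower and 0 higher at an adjusted p under 0.05. DESeq2 also called more of the 16402 genes, 848 lower and 720 higher against 436 and 369 in edgeR. The share of all genes at an unadjusted p alone was not determined. Under the study's definition of a differentially expressed gene (DEG), a fold change above 1.5 with an unadjusted p under 0.05, Igf2, Igfbp5 and Igfbp7 were lower and Igfbp6 was higher. DEGs made up 5.05% of the tested genes in the lower direction and 3.59% in the higher direction, 8.64% in all. For 5 members (Igf1, Igf1r, Igf2r, Igfbp5 and Igfbp7) each MSR1 KO library lay below each MSR1 WT library, and for Igfbp6 each lay above. Such separation was found for 13.4% of tested genes in the lower direction and 12.1% in the higher direction. Log2 fold changes (log2FC) are given as MSR1 KO over MSR1 WT, and 7 of the 9 were below 0, as for 50.4% of all tested genes. Their median was -0.42, against -0.002 over all tested genes. Igfbp6 passed the filter on low counts only through its MSR1 KO libraries and so had to differ, and the counts above include it.

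**Figure D1:**
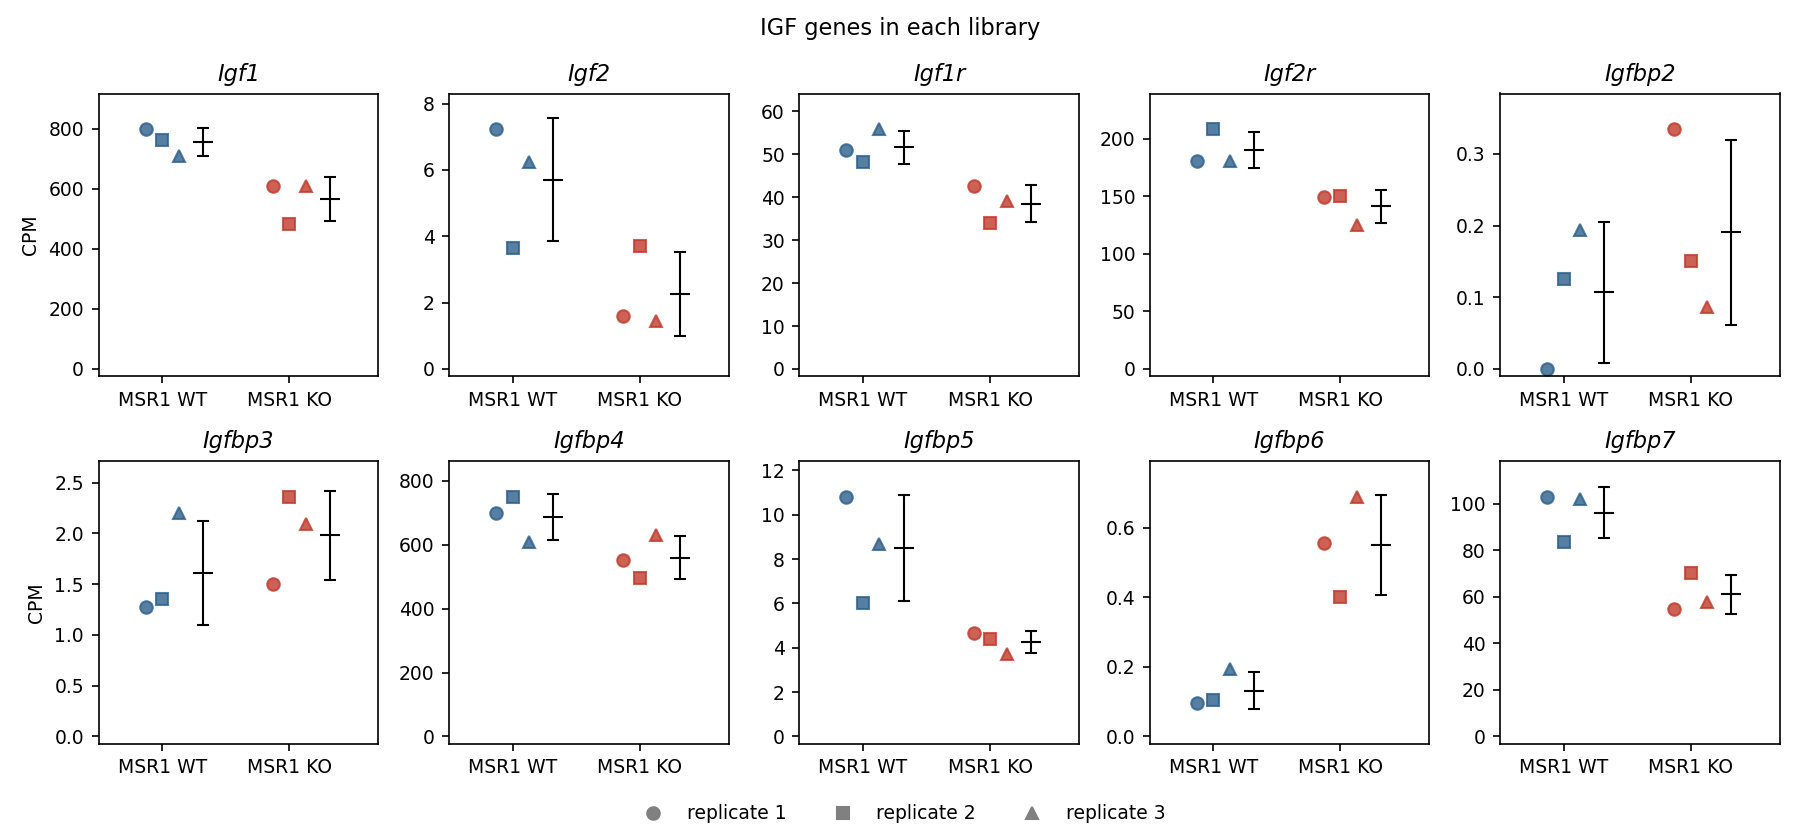
Expression of the 10 IGF members, in TMM-normalized counts scaled to library size (CPM), in the 3 MSR1 KO and 3 MSR1 WT libraries. Points are libraries, and bars give the mean ± SD of 3 libraries. Igf1, Igf1r, Igf2r, Igfbp5 and Igfbp7 had every MSR1 KO point below every MSR1 WT point, whereas Igf2, Igfbp2, Igfbp3 and Igfbp4 overlapped.

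Total counts ranged from 36143518 to 47417448 per library, and the unit used below, CPM, is the count scaled to the library's TMM-normalized total. On that scale 3 counts, the most that a count of 0 allows, equalled 0.0632 to 0.0835 CPM. Msr1 itself had 58.9, 45.8 and 43.0 CPM in MSR1 KO and 183, 193 and 223 CPM in MSR1 WT libraries, and its log2FC was -2.02 (SE 0.14, edgeR adjusted p = 0.0012). Its MSR1 KO mean was 24.7% of its MSR1 WT mean, and the origin of these remaining reads was not tested. The macrophage identity of the libraries was checked on 15 markers, led per length by Lyz2, Cd68 and Tyrobp. All 15 were tested, and their summed level was 25939 to 27297 CPM in MSR1 KO and 26295 to 29262 CPM in MSR1 WT libraries, which overlapped. Fcgr1, Aif1 and Ptprc rose and Mrc1, the mannose receptor, fell at an adjusted p under 0.05 in edgeR's test, and the calls of the first 3 were lost without MSR1 WT replicate 1 (0.088, 0.089 and 0.11), among others. Markers of other cells were also read, and none of the stromal, endothelial, neutrophil or lymphocyte markers was at 0 in every library. The 25 stromal markers summed to 2697 to 3495 CPM in MSR1 KO and 3795 to 4756 CPM in MSR1 WT libraries, with no overlap, and by edgeR's adjusted test 9 were lower and 0 higher. The 9 endothelial markers summed to 119 to 146 and 82.5 to 122 CPM, the 10 neutrophil markers to 664 to 1081 and 431 to 819 CPM, and the 8 lymphocyte markers, mostly Ighm, to 176 to 241 and 105 to 155 CPM in MSR1 KO and MSR1 WT libraries. By edgeR's adjusted test Pecam1 was the single endothelial marker called (higher, 0.027, but 0.11 without MSR1 WT replicate 1). Vwf went the other way (log2FC -1.36, edgeR adjusted p = 0.051) with no overlap, and DESeq2 called 1 endothelial marker in each direction. In edgeR 0 neutrophil and 0 lymphocyte markers passed (3 and 1 at an unadjusted p under 0.05, 2 and 1 by DESeq2). In bulk RNA, fewer cells of a type and less RNA per cell cannot be told apart.

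The members spanned a wide range of levels in macrophage cultures. Levels between genes were compared per length, as CPM per kilobase of merged exons (RPKM). Igfbp4 stood highest in MSR1 WT libraries at 138 to 170 RPKM, 1.95-fold above Igfbp7, the next member. Igfbp7 (69.3 to 85.0 RPKM) and Igf1 (71.5 to 80.6 RPKM) overlapped. Below them lay Igf2r at 19.4 to 22.4 RPKM and Igf1r at 2.87 to 3.33 RPKM, each separate from its neighbours in the order. Igfbp5 (1.00 to 1.80 RPKM), Igf2 (0.637 to 1.26 RPKM) and Igfbp3 (0.410 to 0.703 RPKM) overlapped stepwise. Igfbp6 (0.0872 to 0.174 RPKM) and Igfbp2 (0 to 0.105 RPKM) were near the limit of detection and also overlapped. The ligand Igf1 and its leading binding protein thus stood far above the ligand Igf2. In MSR1 KO libraries Igf1, at 48.7 to 61.5 RPKM, took rank 2 ahead of Igfbp7 at 45.2 to 58.3 RPKM, but these ranges again overlapped. Igf2 (0.256 to 0.649 RPKM) came to rank 9, below Igfbp3 (0.480 to 0.754 RPKM) and Igfbp6 (0.361 to 0.619 RPKM), and its range overlapped those of both.

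**Figure D2:**
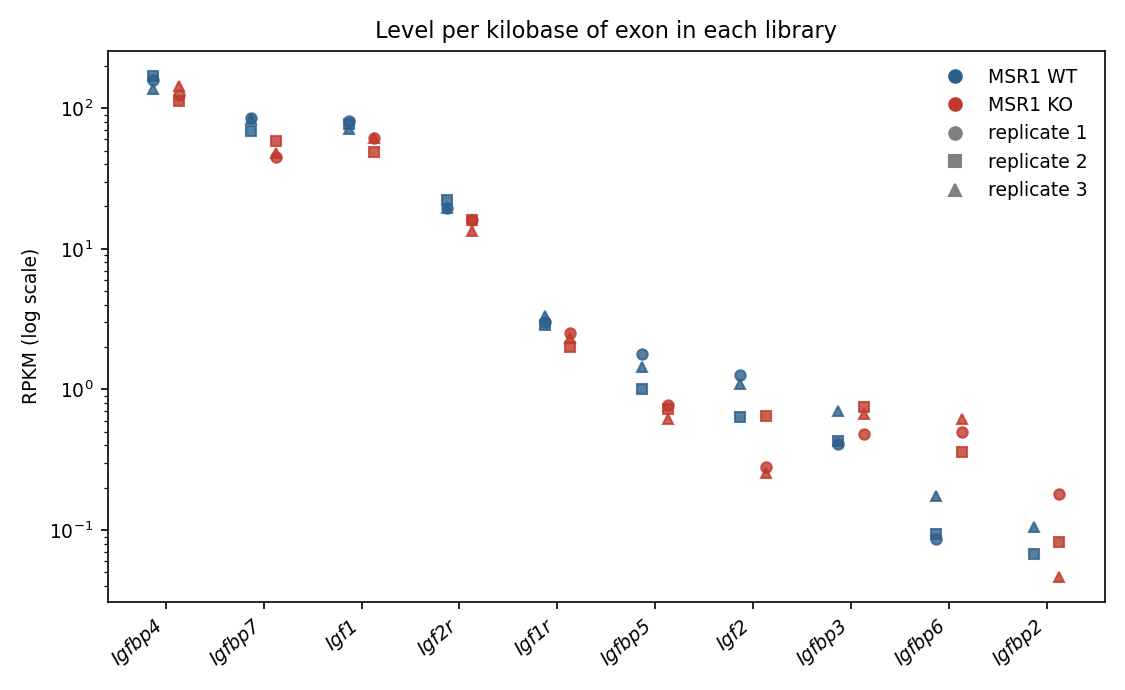
Level per length (RPKM, log axis) of the 10 IGF members in each library, ordered by the mean in MSR1 WT libraries. Circles, squares and triangles are replicates 1, 2 and 3, and the MSR1 WT replicate 1 value of Igfbp2, which is 0, cannot be drawn on this axis. Igfbp4 led in both genotypes, and Igfbp7 and Igf1 shared the next level.

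Sequences upstream of the transcription start are shown for Igf1, Igf1r and the 3 members called lower, the 5 members that were lower in every MSR1 KO library. RefSeq promoters were matched for all 10 members, with 14 starts in all, of which 4 belonged to Igf2 and 2 to Igfbp2. The 250 bases before the start (GRCm38.p6) lay at chr10:87860861-87861110 on the plus strand for Igf1 and at chr7:67952007-67952256 on the plus strand for Igf1r, and on the minus strand at chr17:12769707-12769956 for Igf2r, at chr1:72874866-72875115 for Igfbp5 and at chr5:77408046-77408295 for Igfbp7. Each is written 5′ to 3′ on the strand of its gene, and capitals mark matches on either strand to GGGCGG, the GC box.
Igf1: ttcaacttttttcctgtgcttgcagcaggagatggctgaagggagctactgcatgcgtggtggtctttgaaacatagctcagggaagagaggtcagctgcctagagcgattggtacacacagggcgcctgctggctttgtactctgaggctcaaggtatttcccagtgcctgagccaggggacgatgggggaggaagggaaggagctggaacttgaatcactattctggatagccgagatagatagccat
Igf1r: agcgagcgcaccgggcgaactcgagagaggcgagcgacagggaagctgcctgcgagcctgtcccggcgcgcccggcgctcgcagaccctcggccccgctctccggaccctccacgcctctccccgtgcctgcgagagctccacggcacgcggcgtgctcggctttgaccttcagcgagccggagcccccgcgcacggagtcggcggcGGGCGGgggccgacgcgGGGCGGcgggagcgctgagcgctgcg
Igf2r: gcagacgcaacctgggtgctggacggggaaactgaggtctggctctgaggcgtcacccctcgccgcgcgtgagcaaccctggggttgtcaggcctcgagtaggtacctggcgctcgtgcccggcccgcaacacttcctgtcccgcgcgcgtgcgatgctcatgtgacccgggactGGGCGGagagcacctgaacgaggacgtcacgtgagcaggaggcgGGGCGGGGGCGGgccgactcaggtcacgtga
Igfbp5: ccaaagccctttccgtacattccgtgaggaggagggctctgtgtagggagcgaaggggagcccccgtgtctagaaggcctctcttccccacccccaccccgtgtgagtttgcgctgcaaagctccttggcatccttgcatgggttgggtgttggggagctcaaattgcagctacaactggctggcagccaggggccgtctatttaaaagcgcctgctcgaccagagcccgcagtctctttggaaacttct
Igfbp7: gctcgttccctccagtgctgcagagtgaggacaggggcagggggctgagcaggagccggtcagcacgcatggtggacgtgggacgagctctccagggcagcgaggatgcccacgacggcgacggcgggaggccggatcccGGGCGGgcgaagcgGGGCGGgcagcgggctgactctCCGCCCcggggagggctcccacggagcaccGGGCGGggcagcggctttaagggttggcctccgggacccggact
The GC content was 52.8% for Igf1, 77.6% for Igf1r, 69.2% for Igf2r, 58.8% for Igfbp5 and 74.0% for Igfbp7, against a median of 52.4% over 32851 promoters of the same length. The GC box matched at 2 places in Igf1r, at 3 places in Igf2r, at 4 places in Igfbp7 and at none in Igf1 and Igfbp5, and of the 14 starts 6 held it, against 32.7% of all promoters. TATAAA, the TATA box, matched on either strand in 2 of the 14 starts, those of Igfbp4 and Igfbp6, and in 12.4% of all promoters. TGTTTAC, a FOXO motif, and CTTTGAT, a TCF/LEF motif, matched in 0 of the 14 starts and in 3.17% and 3.21% of all promoters on either strand. None of the 4 motifs was found in this window in all 3 called members.

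Igf1 transcripts were lower in every MSR1 KO library. Igf1 (ENSMUSG00000020053.18, chr10:87858265-87937042, plus strand) had 610, 483 and 609 CPM in MSR1 KO and 798, 762 and 708 CPM in MSR1 WT libraries. MSR1 KO replicate 2 was the lowest, and the groups did not overlap. The means were 567 ± 73.1 CPM in MSR1 KO and 756 ± 45.2 CPM in MSR1 WT libraries (SD, n = 3 each), and the first was 75.0% of the second. The log2FC of -0.42 (SE 0.10) missed the threshold with an edgeR adjusted p = 0.058. Igf1 passed with DESeq2 (adjusted p = 0.0063), with at least 10 counts in every library (0.049) and with library size alone in edgeR (0.043), and it missed with any 1 library left out (adjusted p = 0.071 to 0.20 in edgeR, log2FC -0.47 to -0.31).

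Igf2, the fetal-type ligand expressed from the paternal allele, was low throughout and varied between replicates. Igf2 (ENSMUSG00000048583.16, chr7:142650766-142666816, minus strand) had 58, 148 and 68 counts in MSR1 KO and 298, 173 and 258 counts in MSR1 WT libraries, or 1.61, 3.72 and 1.46 against 7.22, 3.64 and 6.24 CPM. MSR1 KO replicate 2 lay above MSR1 WT replicate 2, so the groups overlapped. The log2FC was -1.33 (SE 0.40, edgeR adjusted p = 0.11), a DEG by the study's definition that missed the adjusted threshold. The mean in MSR1 KO libraries was 39.7% of that in MSR1 WT libraries. Without MSR1 KO replicate 2 the log2FC was -1.89 with an edgeR adjusted p = 0.041, without MSR1 KO replicate 3 it was -1.08, and DESeq2 gave an adjusted p = 0.012 with all 6 libraries. Another annotated gene on the same strand, Gm49394, covers 62.83% of the exon bases of Igf2. No count of Gm49394 was available, so how reads of the shared bases were assigned is unknown, and the Igf2 count is uncertain.

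The balance between the ligands was taken within each library, free of library size. Igf1 counts exceeded Igf2 counts 378-, 130- and 416-fold in MSR1 KO and 110-, 209- and 113-fold in MSR1 WT libraries. MSR1 KO replicate 2 and MSR1 WT replicate 2 lay closest to the other genotype and overlapped it. The log2 ratio averaged 8.09 ± 0.93 in MSR1 KO and 7.10 ± 0.52 in MSR1 WT libraries (SD, n = 3 each), a difference of 0.98 with a two-sided p = 0.20 in an exact permutation test, whose smallest possible p is 0.10. Without MSR1 KO replicate 2 the difference was 1.52.

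Both receptors were lower in every MSR1 KO library and by nearly the same proportion. Igf1r, the signalling receptor (ENSMUSG00000005533.10, chr7:67952827-68233668, plus strand), had 42.6, 33.9 and 39.1 CPM in MSR1 KO and 51.0, 48.2 and 55.8 CPM in MSR1 WT libraries. The groups did not overlap, with MSR1 KO replicate 2 lowest, as for Igf1. Its log2FC was -0.42 (SE 0.11, edgeR adjusted p = 0.062), short of the threshold, while DESeq2 (adjusted p = 0.011), at least 10 counts in every library (0.049) and library size alone (0.048 in edgeR) passed it. With 1 library left out Igf1r stayed short of the threshold (edgeR adjusted p = 0.084 to 0.17). Igf2r (ENSMUSG00000023830.13, chr17:12682406-12769664, minus strand) had 149, 150 and 125 CPM in MSR1 KO and 181, 208 and 181 CPM in MSR1 WT libraries. MSR1 KO replicate 3 was the lowest and no values overlapped. Igf2r fell to 74.4% of its MSR1 WT mean, from 190 ± 16.0 to 141 ± 14.4 CPM (SD, n = 3 each), with a log2FC of -0.43 (SE 0.098, edgeR adjusted p = 0.048). This call lay close to the threshold and was lost with any 1 of the 6 libraries left out (adjusted p = 0.066 to 0.16 in edgeR), with the size factors of DESeq2 in edgeR (0.052) and with no filter on low counts (0.076). Per kilobase, Igf2r exceeded Igf1r 6.68 ± 1.17-fold in MSR1 KO and 6.67 ± 1.01-fold in MSR1 WT libraries (SD, n = 3 each), so the proportion between the receptors differed by less than the spread between replicates.

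Among the binding proteins, Igfbp7 and Igfbp5 fell in MSR1 KO libraries, Igfbp4 and Igfbp3 did not pass the test, Igfbp6 had more counts but very few in all, and Igfbp2 was too low to be tested. Igfbp7, a secreted matrix-associated protein with low affinity for IGFs (ENSMUSG00000036256.13, chr5:77349240-77408041, minus strand), had 54.7, 70.5 and 58.0 CPM in MSR1 KO and 103, 83.7 and 102 CPM in MSR1 WT libraries. The replicates numbered 2 lay nearest to the other genotype without reaching it. Its mean fell from 96.3 ± 10.9 to 61.1 ± 8.35 CPM, given as SD over 3 libraries, and its log2FC was -0.66 (SE 0.12, edgeR adjusted p = 0.027). The call held without MSR1 KO replicate 2 (adjusted p = 0.028) or MSR1 WT replicate 2 (0.042) and was lost in edgeR without MSR1 KO replicate 1 (0.092), MSR1 KO replicate 3 (0.079), MSR1 WT replicate 1 (0.11) or MSR1 WT replicate 3 (0.057). Exons of Polr2b on the opposite strand cover 7.03% of its exon bases, and the strand setting of the counting is unknown.

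Igfbp5, a binding protein stored in bone matrix (ENSMUSG00000026185.8, chr1:72857932-72874884, minus strand), had 167, 175 and 173 counts in MSR1 KO and 447, 286 and 359 counts in MSR1 WT libraries, or 4.65, 4.39 and 3.72 against 10.8, 6.02 and 8.69 CPM. The MSR1 KO libraries lay close together below all MSR1 WT libraries, which spread more widely. Its log2FC was -1.0 (SE 0.23, edgeR adjusted p = 0.048), and the MSR1 KO mean was 50.0% of the MSR1 WT mean. The call held without MSR1 WT replicate 2 (adjusted p = 0.040 in edgeR) and was lost without any other 1 library (0.094 to 0.16) or with no filter on low counts (0.068), with log2FCs from -1.20 to -0.79 when 1 library was left out.

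Igfbp4, which binds IGFs and blocks their action (ENSMUSG00000017493.12, chr11:99041244-99054392, plus strand), had 552, 496 and 630 CPM in MSR1 KO and 701, 750 and 608 CPM in MSR1 WT libraries. MSR1 KO replicate 3 lay above MSR1 WT replicate 3. Its log2FC was -0.30 (SE 0.11, edgeR adjusted p = 0.18). Relative to Igf1, Igfbp4 stood 2.22 ± 0.162-fold higher per kilobase in MSR1 KO and 2.03 ± 0.152-fold higher in MSR1 WT libraries (SD, n = 3 each), and these values overlapped. Igfbp3, the main carrier of IGFs in serum (ENSMUSG00000020427.11, chr11:7206086-7213923, minus strand), had 1.5, 2.36 and 2.09 CPM in MSR1 KO and 1.28, 1.35 and 2.20 CPM in MSR1 WT libraries. The groups overlapped widely, and the log2FC was 0.30 (SE 0.32, edgeR adjusted p = 0.68).

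Igfbp6, which prefers IGF2 over IGF1 (ENSMUSG00000023046.6, chr15:102144362-102149511, plus strand), had 20, 16 and 32 counts in MSR1 KO and 4, 5 and 8 counts in MSR1 WT libraries. Every MSR1 KO library lay above every MSR1 WT library. The log2FC was 2.04 (SE 0.56) and missed the threshold with an edgeR adjusted p = 0.085. Igfbp2 (ENSMUSG00000039323.18, chr1:72824503-72852474, plus strand) had 12, 6 and 4 counts in MSR1 KO and 0, 6 and 8 counts in MSR1 WT libraries, too few at this depth to resolve a difference. It lies 5457 bases from Igfbp5 on chromosome 1, on the opposite strand.

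**Figure D3:**
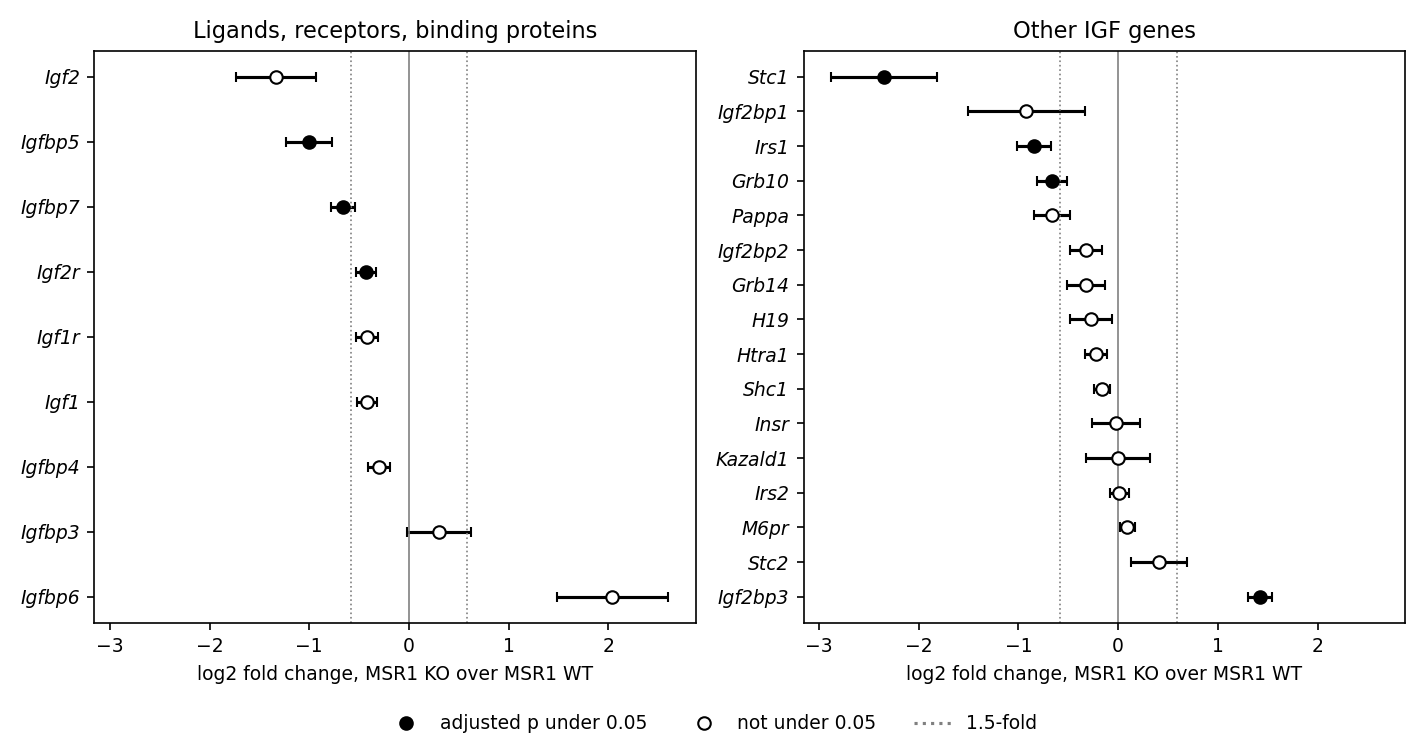
Log2 fold change (MSR1 KO over MSR1 WT) ± SE from edgeR for the 9 tested members and 16 other genes of the IGF system. Filled points have an adjusted p under 0.05, and dotted lines mark a 1.5-fold change. Igf2r, Igfbp5 and Igfbp7 are filled on the lower side among the members, and Stc1, Irs1 and Grb10 are filled on the lower and Igf2bp3 on the higher side among the other genes.

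Stromal markers were lower as a sum in MSR1 KO libraries, as were several members. The sum of the 25 stromal markers in MSR1 KO libraries was 70.4% of that in MSR1 WT libraries, and their median log2FC was -0.39. Pdgfra (log2FC -1.19), Col6a1 (-0.80), Bgn (-0.76), Acta2 (-0.68) and Tagln (-0.64) fell at an adjusted p under 0.05 in edgeR's test, while Sparc (-0.38) did not pass. Without MSR1 WT replicate 1 none of these 5 calls held (edgeR adjusted p = 0.063 to 0.085), and without MSR1 KO replicate 1 only that of Col6a1 did (0.049). Thy1 (1.31), Nt5e (0.46) and Eng (0.47), surface markers that define BMSCs in the study, had positive log2FCs that did not pass edgeR's adjusted test. Thy1 was nevertheless a higher DEG whose groups did not overlap, and DESeq2 called Thy1 (adjusted p = 0.0050) and Eng (0.027) higher. Without MSR1 WT replicate 3 Thy1 also passed in edgeR (adjusted p = 0.0069). Ordered by the stromal sum from low to high, the libraries ran MSR1 KO replicates 1, 3 and 2 and MSR1 WT replicates 2, 3 and 1. Igfbp7 had exactly this order, as did 8 of the 25 stromal markers and 0.665% of the 16402 tested genes. Within the MSR1 KO libraries the stromal sum was highest in replicate 2. Igf2, Igf2r, Igfbp3 and Igfbp7 were also highest there, Igf1, Igf1r, Igfbp4 and Igfbp6 were lowest there, and Igfbp2 and Igfbp5 were highest in replicate 1, where the stromal sum was lowest.

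Values were also taken per 1000 counts of the stromal markers. Igfbp7 then stood at 20.3, 20.2 and 20.7 in MSR1 KO and 21.6, 22.1 and 24.2 in MSR1 WT libraries. The ratio of the means was 0.901, and the groups did not overlap. Since the stromal sum was itself lower in MSR1 KO libraries, every ratio on this scale is raised by the division. Igf2 (0.598, 1.06 and 0.522 against 1.52, 0.960 and 1.48) and Igfbp5 (1.72, 1.26 and 1.33 against 2.28, 1.59 and 2.05) overlapped on this scale, with ratios of 0.552 and 0.728. Igf1 per 1000 stromal counts was 194 ± 48.4 in MSR1 KO and 179 ± 19.1 in MSR1 WT libraries (SD, n = 3 each), a ratio of 1.08. Igf2r (1.05), Igf1r (1.08) and Igfbp4 (1.17) likewise had ratios above 1 and overlapped. The part of stromal RNA in the changes of these members was not tested.

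**Figure D4:**
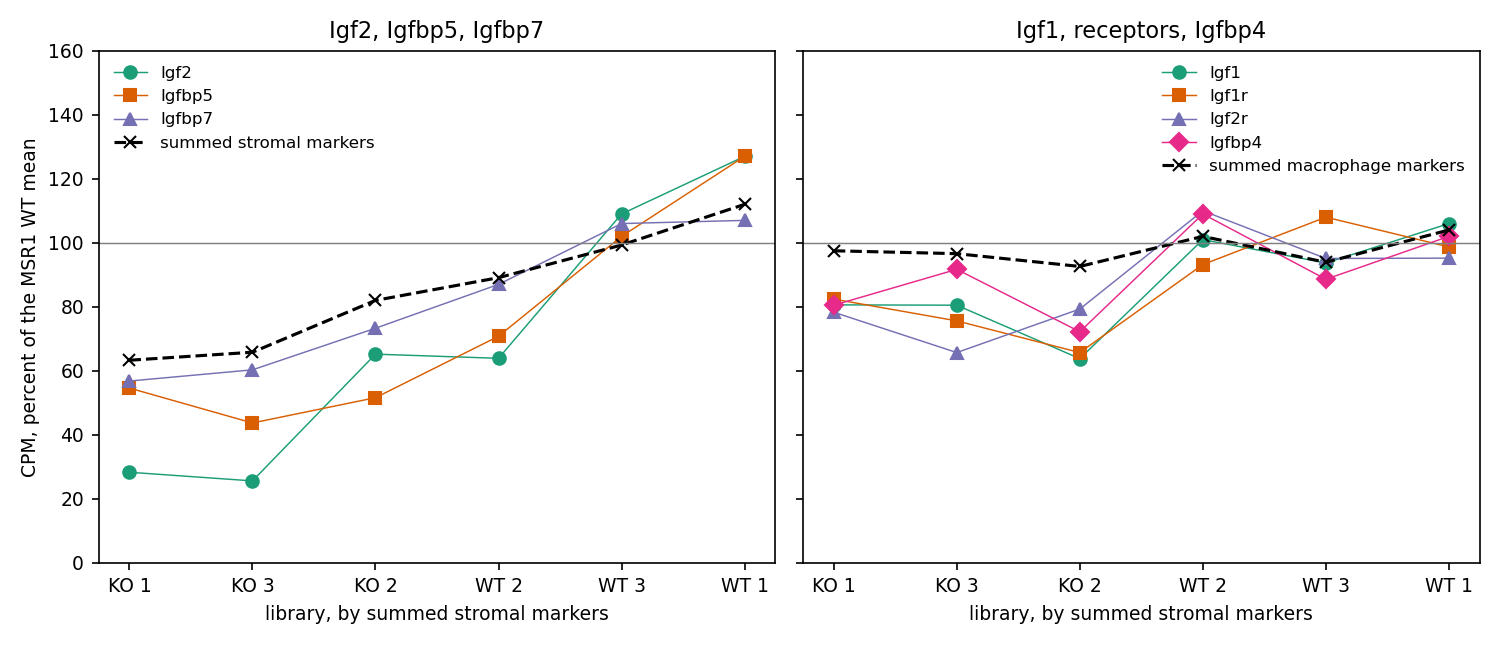
Level of IGF members in percent of the MSR1 WT mean CPM, with the 6 libraries ordered from left to right by the summed level of the 25 stromal markers. The left panel holds Igf2, Igfbp5, Igfbp7 and the stromal sum, the right panel Igf1, Igf1r, Igf2r, Igfbp4 and the macrophage sum, and lines only guide the eye. Igfbp7 rises with the stromal sum in all 6 libraries, whereas Igf1 and Igf1r are lowest in MSR1 KO replicate 2.

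Other genes of the IGF system were taken from a list of 25, of which 16 were tested. By edgeR's adjusted test Igf2bp3 rose and Stc1, Irs1 and Grb10 fell, and the median log2FC was -0.25. Igfbp1, Ins1, Ins2 and Irs4 had 0 counts in all 6 libraries. Of the genes that act on the binding proteins, Pappa, the protease that cleaves Igfbp4 and Igfbp5, had 25.5, 38.6 and 24.0 CPM in MSR1 KO and 51.9, 41.0 and 45.9 CPM in MSR1 WT libraries. These did not overlap, and Pappa was a DEG with a log2FC of -0.66 (SE 0.18, edgeR adjusted p = 0.087). The edgeR adjusted p was 0.023 without MSR1 KO replicate 2 and 0.14 to 0.26 without any other 1 library. Stc1, a stanniocalcin that inhibits Pappa, had 1.00, 0.703 and 0.215 CPM in MSR1 KO and 3.71, 1.92 and 4.04 CPM in MSR1 WT libraries. Every MSR1 KO library was lower, with a log2FC of -2.35 (SE 0.53, edgeR adjusted p = 0.045), and the call was lost with any 1 library left out (adjusted p = 0.069 to 0.15).

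Downstream of the receptors, Irs1, a docking protein of the IGF1 and insulin receptors, had 8.96, 13.5 and 11 CPM in MSR1 KO and 22.5, 18.2 and 19.4 CPM in MSR1 WT libraries. The groups were separate, and the log2FC was -0.84 (SE 0.17, edgeR adjusted p = 0.030). Grb10, an adaptor that restrains both receptors, had 38.2, 46.0 and 29.8 CPM against 63.5, 59.4 and 57.5 CPM and fell by 0.66 on the log2 scale (SE 0.15, edgeR adjusted p = 0.043). With 1 library left out, Irs1 and Grb10 kept their calls in edgeR only without MSR1 KO replicate 2 (adjusted p = 0.029 and 0.028). Irs2, the other main docking protein, was at 28.5 ± 2.75 CPM in MSR1 KO and 28.4 ± 0.833 CPM in MSR1 WT libraries (SD, n = 3 each), a log2FC of 0.01 (SE 0.096). Insr, the insulin receptor gene, was at 72.7 ± 20.6 and 73.9 ± 18.8 CPM, a log2FC of -0.02 (SE 0.24), and both differences were smaller than the spread between replicates. Igf2bp3, an RNA-binding protein named for its binding to Igf2 mRNA, had 30.6, 34.4 and 30.1 CPM in MSR1 KO and 12.1, 13.2 and 10.2 CPM in MSR1 WT libraries. Its log2FC of 1.42 (SE 0.12, edgeR adjusted p = 0.0032) was opposite in sign to that of Igf2 and kept its call with each library left out in turn. H19, which lies 72622 bases from Igf2 and is imprinted with it, was at 5.44 ± 1.14 CPM in MSR1 KO and 6.56 ± 1.14 CPM in MSR1 WT libraries (SD, n = 3 each), with a log2FC of -0.27 (SE 0.21, edgeR adjusted p = 0.56).

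In the PI3K-AKT-FOXO list of 28 signalling genes, 27 were tested and 0 had an adjusted p under 0.05 in edgeR's quasi-likelihood test. At an unadjusted p under 0.05, 3 were lower and 1 was higher, and DESeq2 called 2 lower and 0 higher. Over all 16402 tested genes DESeq2 called 848 lower and 720 higher, and the share at an unadjusted p alone was not determined. Pik3r3, a regulatory subunit of PI3-kinase, was the single DEG, at 4.06, 3.97 and 4.11 CPM in MSR1 KO and 7.64, 6.66 and 5.20 CPM in MSR1 WT libraries. All 3 MSR1 KO values lay below MSR1 WT, and the log2FC was -0.68 (SE 0.18, edgeR adjusted p = 0.079). Without MSR1 WT replicate 3 this adjusted p was 0.043. Its genes had a median of -0.05 in log2FC, against -0.42 for the IGF members. RNA counts do not measure the phosphorylation through which this pathway acts.

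The genes whose library-to-library pattern was most like that of each ligand were found after subtracting the genotype means from log2 CPM. Over the 6 libraries and 13609 genes, Mrps7 (Pearson's r = 0.998), Gm24853 (0.998) and Bri3 (0.995) were most like Igf1, and Adamts2 (0.998), Nnt (0.997) and Ddit4l (0.997) were most like Igf2, where the points share libraries and depth. With so few libraries, 135 genes had r above 0.95 with Igf1 and 109 with Igf2.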

How the data were processed

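RNA of 3 MSR1 KO and 3 MSR1 WT macrophage cultures kept with BMSCs was sequenced. The authors deposited raw read counts per gene and library, without normalization, beside a signal column for each library in which those counts were scaled by a size factor. The deposited log2 fold changes and p-values of the authors' own comparison were not used. The paper's methods name TopHat and FPKM, the submitters' processing notes list fastp 0.17.1, HISAT2 2.1.0, DESeq2 1.18.1 and R 3.4.3, and the table holds counts. Which program counted the reads, with which strand setting and on which build, is not given in the sources used here. GENCODE's GRCm38 annotation held 52403 of the 52550 identifiers, 49909 of them with identical coordinates, all 10 members included. Date-like symbols (27) were restored by identifier.

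After edgeR's filterByExpr and TMM scaling, 16402 genes entered the quasi-likelihood test (edgeR 4.0.16, R 4.3.3) with Benjamini-Hochberg adjustment, and SEs were derived from its F statistic. DEGs had to exceed a fold of 1.5 at an unadjusted p under 0.05. Library totals of 36143518 to 47417448 counts set the precision, for counting error only. The code was tested on simulated data. Alternatives were DESeq2 1.42.0, edgeR on its size factors, on unscaled library totals and without a filter, a minimum of 10 counts in each library, a replicate block, a ratio pseudocount of 1 in place of 0.5, and leaving out each library. The members and lists were chosen with earlier results of these data known. Named were the 10 members and Msr1, DEGs or called genes of the other lists with a fixed few (Igfbp1, Ins2, Insr, Pappa, Irs1 and Irs2), markers from the 3 most abundant or the 3 of smallest p in each list, and the 3 genes most like each ligand. Outside this rule, Mrc1, Thy1, Nt5e, Eng, H19, Ins1, Irs4 and the neighbouring genes were chosen after their values were seen. Libraries of a genotype differed by more than sampling noise. The paper calls the libraries biological replicates, but the labels do not say that they came from separate mice, and p-values measure the spread between these libraries, which may be technical.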

Additional observations from a re-analysis of the deposited data

How the results depend on the processing

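None of the 9 tested members, nor Msr1 (-2.16 to -1.93 with 1 library left out), changed direction under the alternatives that gave a value, and Igfbp2 had a value only without a filter. Of 107 alternative values of members' log2 fold changes, 78 kept their side of the threshold, 21 lost it, 8 gained it and 0 reversed. The number of members lower at an adjusted p under 0.05, 3 in edgeR, was 6 with DESeq2, 5 with at least 10 counts in every library, 5 with library size alone, 1 with no filter, 0 with the replicate block, and 0 to 2 with 1 library left out. Lower DEGs numbered 2 to 3 with 1 library left out. With at least 10 counts in every library 0 members were higher DEGs, since Igfbp6 was no longer tested. The other IGF genes called lower, 3 in edgeR, were 1 with no filter, 0 with the replicate block and 0 to 3 with 1 library left out. In the PI3K-AKT-FOXO list DESeq2 called 2 genes, and 0 to 1 were called in edgeR with 1 library left out. The difference in the log2 ligand ratio, MSR1 KO minus MSR1 WT, ranged from 0.68 to 1.52. Insr and Irs2 lay near 0, so their sign turned: Insr ranged from -0.23 to 0.18 and Irs2 from -0.07 to 0.06 with 1 library left out, and Irs2 was -0.03 with library size alone. Same-numbered libraries did not deviate together (r = -0.026, 0.019 and -0.005 over genes), so no pairing was visible over genes as a whole. A weak shared source, or one acting on few genes, was not tested. The block left 59 higher and 78 lower genes of 369 and 436. Without a filter 237 and 288 genes were called, with DESeq2 720 and 848, and with 1 library left out 18 to 407 and 53 to 372, lowest without MSR1 WT replicate 1. Calls of Igfbp2 and Igfbp6 are limited by their few counts. The causes of these differences were not tested.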
